A study of Mus musculus with 32 samples.

Results

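Cholesterol loading was examined in primary white adipocytes in which Atf3 had been silenced. These cells, which store fat, came from the subcutaneous fat of mice, and their poly(A) RNA was sequenced. The 8 libraries described here are the 4 that received siAtf3 and 400 µM cholesterol, carried by methyl-β-cyclodextrin, for 6 h, and the 4 that received siAtf3 and the control treatment. They were taken by their labels from a series of 32 libraries, which was set up to ask how Nfe2l1 and Atf3 act on cholesterol homeostasis. The other groups used below are 8 libraries with a scrambled siRNA (scramble) and 8 with siNfe2l1 and siAtf3 together, each again split into 4 control and 4 cholesterol libraries of the same dose and time. All groups were grown in DMEM F-12 with 10% FBS. The siRNA lowers the messenger without deleting the gene, and the sources used here do not say whether the control treatment contained the carrier, how many animals or cultures the libraries came from, or the age of the mice. The libraries of a group are labelled as biological replicates. If they were not separate cultures, the p-values measure technical spread only.

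Cells sense cholesterol in the membrane of the endoplasmic reticulum. When it is scarce, SREBP2 moves to the nucleus and switches on the genes of sterol synthesis and uptake, and when it is plentiful SREBP2 is held back while oxysterols activate the LXR receptors, which raise the ABC transporters that export cholesterol. ATF3 is a basic leucine zipper (bZIP) transcription factor that many stresses induce, often downstream of ATF4, and it is known in macrophages for restraining inflammatory genes. NFE2L1 is another bZIP factor, anchored in the endoplasmic reticulum, that adjusts the proteasome and has been described as a sensor of excess cholesterol.

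Atf3 (GRCm39 chromosome 1, 190902493 to 190950236), the silenced gene, was measured first. Its level was 10.95, 9.10, 10.4 and 10.05 CPM in the control libraries and 52.7, 37.5, 37.1 and 36.3 CPM in the cholesterol libraries. With scramble it was 23.99, 28.5, 25.6 and 29.1 CPM in control libraries and 561, 309.6, 439 and 281 CPM in cholesterol libraries. CPM, the usual depth-scaled count, was computed here with the TMM-scaled library size (TMM is edgeR's correction for the makeup of a library), and values are listed in the order of libraries 1 to 4. Below, numbers in parentheses after a gene are its log2 fold change ± SE. All siAtf3 libraries lay below all scramble libraries of the same treatment, with 37.8% of the scramble mean left under control treatment and 10.3% left under cholesterol. Atf3 still rose with cholesterol under siAtf3, by a log2 fold change of 2.01 ± 0.31 (± standard error, SE, adjusted p = 3.44e-06), against 3.89 ± 0.29 with scramble. Nfe2l1, which was not targeted here, rose from 479 ± 8.85 to 743 ± 18.9 CPM (mean ± SD, n = 4), a log2 fold change of 0.63 ± 0.07. The plot of both messengers shows these values per library.

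**Figure D1:**
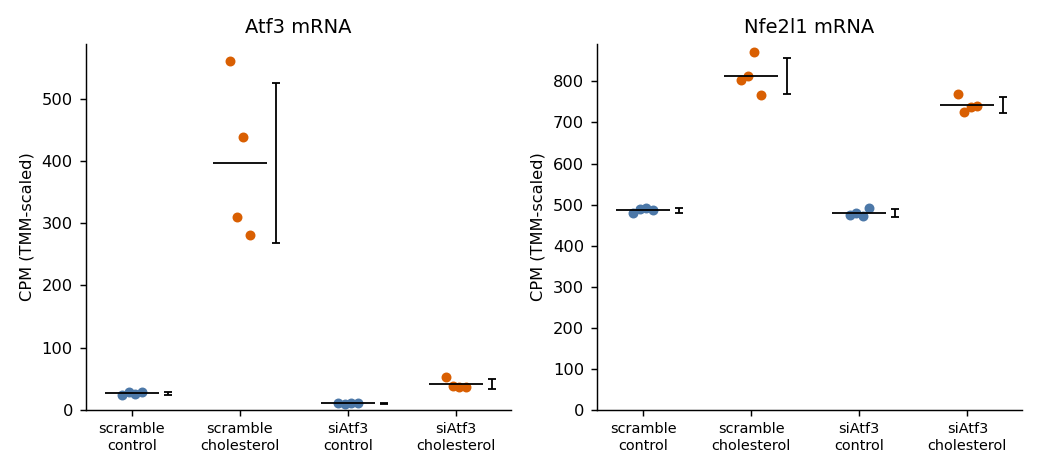
Levels of Atf3 and Nfe2l1 mRNA in CPM for each library (points), with the group mean (line) and SD (bar at the right of each group). The 4 siAtf3 cholesterol libraries hold Atf3 at 36.3 to 52.7 CPM, above the siAtf3 controls and below the scramble cholesterol libraries.

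The 8 siAtf3 libraries held 23457384 to 27576979 counts, and 1.79% to 2.04% of counts in the control and 2.15% to 2.56% in the cholesterol libraries came from mitochondrial genes, with no overlap between the groups. With scramble these shares overlapped (1.92% to 2.13% and 1.88% to 2.16%). The part of this in the results was not tested. Principal components were computed from the log2 CPM of the 1000 genes that varied most among the 8 siAtf3 libraries. Treatment separated these libraries along the first component, which carried 87.5% of the variance of those 1000 genes. Cholesterol library 1 stood apart from the other 3 cholesterol libraries on the second component, at 16.2 against -6.16 to -5.44. Some results are therefore also given without it, but not every value that shifts. Adipocyte markers were present in every library. The 15 on the list summed to 18709 to 20012 CPM in control libraries and 23553 to 25497 CPM in cholesterol libraries. Of 14 markers of lymphocytes, epithelium, mesothelium and glia, 9 stayed below the filter on low counts (among them Cd3e, Ms4a1 and Epcam).

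Most of the measured transcriptome of the Atf3-silenced cells differed between the cholesterol treatment of 6 h and the control treatment. Whether the carrier had a part in this cannot be told, since the makeup of the control treatment is not given. Of 16984 genes tested, 9860 (58.1%) were called at a false discovery rate of 0.05. The 4997 called higher were 29.4% of the genes tested and the 4863 called lower were 28.6%, and 2417 of the calls exceeded 2-fold (836 higher and 1581 lower). In 8784 called genes (51.7% of those tested) the 4 control and the 4 cholesterol libraries did not overlap. Every list count below has to be read against these shares. In several lists leaving out 1 library moved the count of the less frequent direction by 1 or 2 genes. Over all genes tested the median log2 fold change was 0.003. Without cholesterol library 1 the test called 9367 genes, and when libraries were scaled by their totals alone it called 4022 higher and 5681 lower. Below, "rose" and "fell" are used only for called genes, and log2 fold changes are cholesterol minus control.

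Most genes that make cholesterol or take it up fell. In the list of sterol synthesis enzymes, 15 of 21 fell, 0 rose, and the median log2 fold change was -0.34. Sqle, the squalene epoxidase that commits the pathway to sterols, was at 105, 104, 105 and 104 CPM in the control libraries and 42.1, 38.7, 40.01 and 39.2 CPM in the cholesterol libraries. Its groups did not overlap, and it fell by 1.39 on the log2 scale (SE 0.05, adjusted p = 3.84e-22). Idi1 (-1.26 ± 0.08) and Msmo1 (-1.09 ± 0.07) fell less than Sqle, and Hmgcs1, an early synthase of the pathway, showed a smaller fall of -0.45 ± 0.06. The sterol reductase Lbr (0.12 ± 0.09, adjusted p = 0.307) was not called. The sterol element word TCACCCCAC occurred in 1 of 16 promoters of the synthesis list, against 0.501% of 10989 promoters of tested protein-coding genes. Each was searched on both strands over the 250 bases before the start. The share was 0.198% among genes called more than 2-fold higher and 0.214% among those called more than 2-fold lower. The word was also in 1 of 18 promoters of the cytosolic heat shock list described below, in which most genes rose. The Hmgcs1 stretch, from RefSeq on GRCm38.p6 at chr13:119690204-119690233 (+ strand), is shown 5′ to 3′ with the word in capitals, because it is the only match among those of the synthesis list, in which most genes fell.
Hmgcs1: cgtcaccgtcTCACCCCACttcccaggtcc

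Among 14 genes of sterol sensing and uptake, 8 fell and 3 rose. Stard4, a carrier of free sterol between membranes, was at 48.4, 47.97, 43.2 and 51.02 CPM in the control libraries and 15.8, 16.8, 20.9 and 19.7 CPM in the cholesterol libraries. All 4 cholesterol libraries lay below all controls, and the log2 fold change was -1.38 ± 0.07 (adjusted p = 7.39e-19). Srebf2 (-0.70 ± 0.05), the gene of SREBP2, fell as well. The 3 that rose were Mylip (0.99 ± 0.10), a ubiquitin ligase that limits lipoprotein uptake, Vldlr (0.81 ± 0.06) and the lysosomal exporter Npc1 (0.65 ± 0.06).

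Most genes of cholesterol export rose. Of 14 LXR targets and efflux genes, 9 rose and 1 fell, with a median log2 fold change of 0.27. Abca1, which loads cholesterol onto apolipoproteins, was at 368, 381, 315 and 377 CPM in the control libraries and 636, 764, 786 and 742 CPM in the cholesterol libraries. The groups did not overlap, and the log2 fold change was 1.02 ± 0.12 (adjusted p = 2.79e-08). Abcg1, its partner for HDL, rose from 265 ± 10.5 to 449.6 ± 20.7 CPM. Also higher were Ch25h (1.28 ± 0.10), an oxysterol-making hydroxylase, the LXRα gene Nr1h3 (0.88 ± 0.07) and Srebf1 (0.59 ± 0.12). In the list of cholesterol esterification and transport, 11 of 18 rose and 3 fell. Its largest rise was that of Gramd1b, which moves cholesterol from the plasma membrane to the endoplasmic reticulum, at 1.46 ± 0.08, while Soat1, the enzyme that esterifies cholesterol, rose by 0.36 ± 0.05.

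Most fat storage genes rose, and fatty acid synthesis genes moved both ways. Of 21 lipid droplet, uptake and lipolysis genes, 19 rose and 1 fell (median 0.46). Plin2, a coat protein of lipid droplets, was at 1386, 1341, 1358 and 1406 CPM in the control libraries and 4113, 3192, 3474 and 3300.1 CPM in the cholesterol libraries. Library 1 was the highest of the cholesterol group, and all 4 exceeded the controls (log2 fold change 1.36 ± 0.12, adjusted p = 3.96e-10). Gpat3 (2.40 ± 0.08) and Hilpda (2.38 ± 0.27) rose further, the first an acyltransferase that starts triglyceride synthesis and the second an inhibitor of lipolysis. Cidec (1.08 ± 0.06), Agpat2 (0.97 ± 0.06) and Acsl1 (0.95 ± 0.08) also rose, Plin5 fell by 0.35 ± 0.05, and the lipase Lpl (0.03 ± 0.04, adjusted p = 0.525) was not called. In fatty acid synthesis 9 of 15 genes rose and 3 fell. Fasn, the fatty acid synthase, was at 2286, 2129, 2268 and 2275 CPM in the control libraries and 661, 902, 845 and 815 CPM in the cholesterol libraries. No cholesterol library reached the lowest control, and the log2 fold change was -1.48 ± 0.11 (adjusted p = 1.13e-11). Elovl6 fell by 0.53 ± 0.07, while the desaturase Scd1 (0.56 ± 0.06) and the lipogenic regulator Thrsp (0.79 ± 0.09) rose.

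Most listed genes of the integrated stress response, the programme that ATF4 drives, rose in the Atf3-silenced cells. In this list 22 of 24 genes rose, 1 fell, and the median log2 fold change was 1.24. Slc7a11, the cystine importer, was at 24.4, 20.9, 19.5 and 21.8 CPM in the control libraries and 171, 174, 187 and 179 CPM in the cholesterol libraries. Its log2 fold change was 3.04 ± 0.11 (adjusted p = 2.76e-19), and the groups were far apart. Chac1, which degrades glutathione, was at 10.6, 11.7, 10.5 and 11.4 CPM in the control libraries and 83.1, 56.6, 64.03 and 62.3 CPM in the cholesterol libraries. Library 1 was the highest, and the log2 fold change was 2.59 ± 0.21 (adjusted p = 7.39e-11). Ddit3, which encodes the death-promoting factor CHOP, was at 24.7, 24.7, 24.4 and 25.3 CPM in the control libraries and 155, 126, 121 and 127 CPM in the cholesterol libraries, again with library 1 highest and no overlap between the groups (log2 fold change 2.41 ± 0.19, adjusted p = 2.10e-11). Atf4 itself rose from 157 ± 1.89 to 415 ± 61.3 CPM. Other members that rose were Ppp1r15a (2.84 ± 0.22), the phosphatase subunit that ends the response, Slc7a5 (1.73 ± 0.09), Psat1 (1.21 ± 0.06), Trib3 (1.19 ± 0.16) and Asns (1.05 ± 0.05). The member that fell was Ddit4 (-0.45 ± 0.12).

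Of 20 cytosolic aminoacyl-tRNA synthetases, which charge tRNAs with amino acids, 16 rose and none fell (median 0.54). With scaling by library totals 14 rose and 2 fell. The rises of Aars (0.93 ± 0.06), Nars (0.90 ± 0.06), Sars (0.89 ± 0.06) and Wars (0.87 ± 0.04) were similar in size. Promoters of these lists were searched for the C/EBP-ATF composite element, to which ATF4 binds with C/EBP partners. The word TGATGCAAT was in 1 of 21 promoters of the stress response list and 1 of 13 of the synthetase list, against 0.137% of all. Its first 8 letters alone, TGATGCAA, a word chosen after these promoters had been seen, were in 3 and 2 of them against 0.537% of all promoters, and in 1.98% of genes called more than 2-fold higher against 0.643% of those called more than 2-fold lower. Slc7a11 holds the short word in both orientations, and the promoter of Atf3 holds it as well. The 3 stretches show it in capitals, read 5′ to 3′ along each gene's strand, from RefSeq on GRCm38.p6 at chr3:50443651-50443680 (- strand), chr2:119351038-119351067 (+ strand) and chr1:191183425-191183454 (- strand).
Slc7a11: cTGATGCAAacctggagaatTTGCATCAtc
Chac1: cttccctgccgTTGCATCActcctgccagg
Atf3: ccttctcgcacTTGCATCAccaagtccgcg

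Most endoplasmic reticulum stress genes rose. Of 25 chaperones and degradation factors, 19 rose and 5 fell (median 0.46). Hspa5, the main chaperone of the compartment, was at 960.3, 956, 965 and 964 CPM in the control libraries and 2645, 2373, 2342 and 2506 CPM in the cholesterol libraries. The groups did not overlap (log2 fold change 1.36 ± 0.05, adjusted p = 1.96e-22). Ero1a (1.95 ± 0.10), Dnajb9 (1.68 ± 0.07), Herpud1 (1.31 ± 0.08) and Xbp1 (0.52 ± 0.04) also rose. The 5 that fell were the co-chaperone Dnajb11 (-0.13 ± 0.04), the disulfide isomerases Pdia3 (-0.23 ± 0.04), Pdia6 (-0.15 ± 0.04) and Pdia4 (-0.31 ± 0.04), and the lectin chaperone Calr (-0.23 ± 0.04). The call of Dnajb11 was lost without cholesterol library 1, control library 2 or control library 3 (adjusted p 0.0518 to 0.0636).

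**Figure D2:**
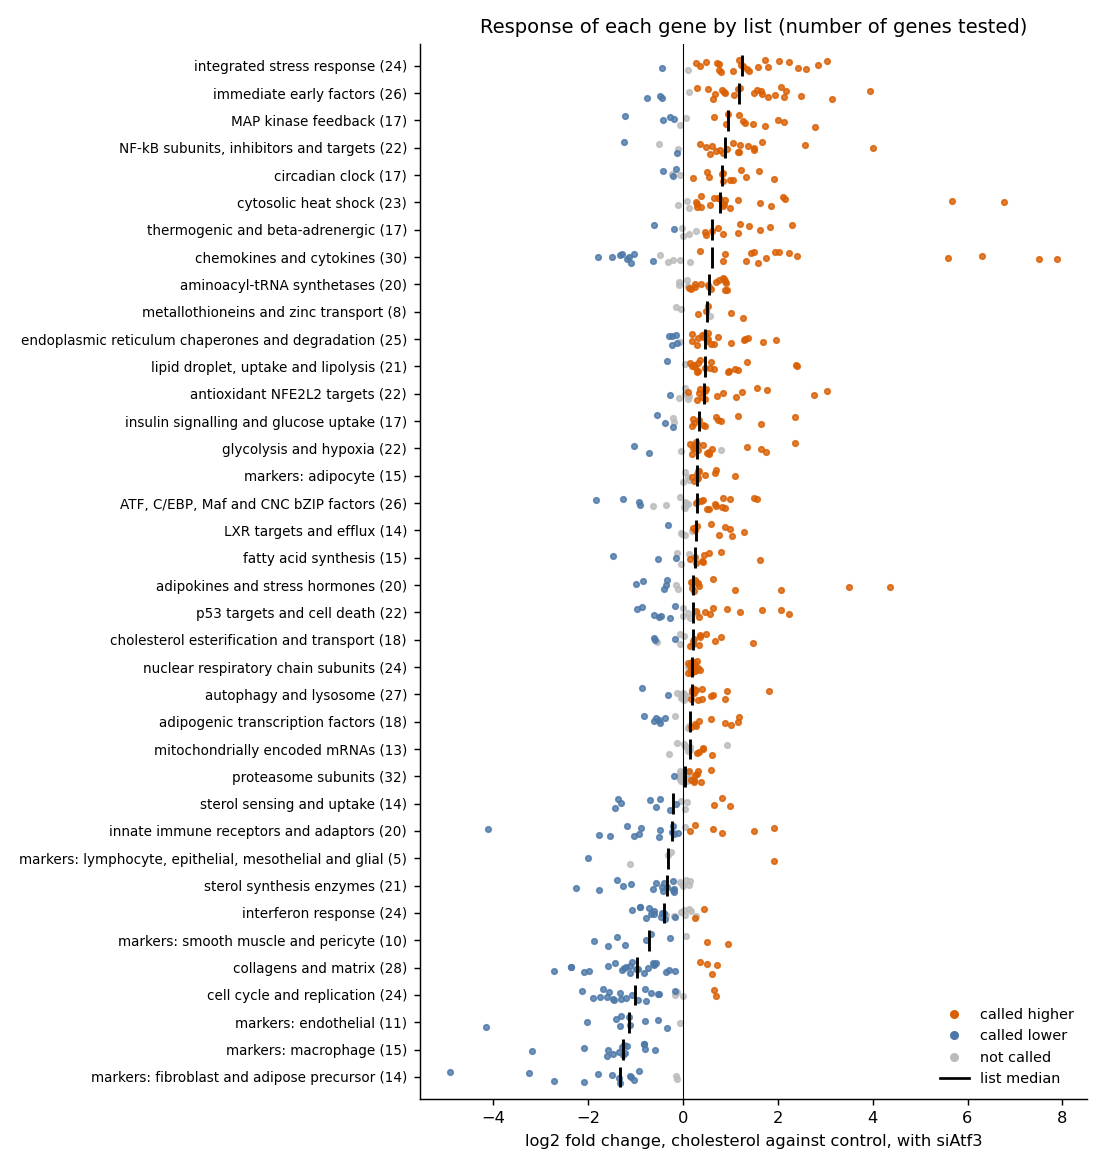
Log2 fold change by cholesterol with siAtf3 for each gene tested (points), by gene list, ordered by the list median (black line). Orange points were called higher, blue points lower and grey points were not called. The integrated stress response has the highest median (1.24) and fibroblast markers the lowest (-1.34).

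Most cytosolic heat shock genes rose. Of 23 members, 20 rose and none fell, with a median log2 fold change of 0.78. Hspa1a (GRCm39 chromosome 17, 35188166 to 35191132), an inducible HSP70, was at 4.07, 3.04, 4.11 and 3.04 CPM in the control libraries and 405, 336, 410.1 and 411 CPM in the cholesterol libraries. It had the largest rise among the abundant protein-coding genes without overlap, 6.77 ± 0.24 on the log2 scale (adjusted p = 3.09e-18). Hspa1b, its near-identical neighbour, was at 15.3, 13.1, 16.4 and 14.8 CPM in the control libraries and 852, 661, 761 and 773 CPM in the cholesterol libraries, with a log2 fold change of 5.67 ± 0.19 and groups equally far apart. How reads were divided between these copies is not given in the sources used here, so their separate values are uncertain. Hspb1, the small chaperone HSP27, was at 48.9, 45.3, 48.1 and 51.02 CPM in the control libraries and 219.9, 191, 215 and 229 CPM in the cholesterol libraries. No library overlapped, and the log2 fold change was 2.15 ± 0.16 (adjusted p = 6.96e-12). The co-chaperones Hsph1 (2.11 ± 0.12), Dnajb1 (1.86 ± 0.16) and Bag3 (1.00 ± 0.12), the HSP90 gene Hsp90aa1 (1.63 ± 0.09) and Hspa8 (1.15 ± 0.08) rose, and Hsf1, the factor that drives the programme, rose by 0.30 ± 0.07.

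Heat shock factor binds alternating GAA and TTC units. The word GAANNTTC was found in 6 of 18 promoters of the heat shock list, against 5.04% of promoters of all tested genes. Among genes called more than 2-fold higher the share was 3.96%, and among those called more than 2-fold lower 5.57%. The matches were in Hspa1a, Hspa1b, Hspb1, Dnaja1, Hspe1 and Fkbp4. The stretches of the 3 members with the largest rises among these are given from RefSeq on GRCm38.p6 at chr17:34972242-34972271 (- strand), chr17:34959324-34959353 (- strand) and chr5:135887801-135887830 (+ strand). Those of Hspa1a and Hspb1 differ around the word, that of Hspa1b is the same as that of Hspa1a, and Hspb1 holds the word in 2 places.
Hspa1a: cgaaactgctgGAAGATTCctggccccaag
Hspa1b: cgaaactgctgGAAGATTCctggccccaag
Hspb1: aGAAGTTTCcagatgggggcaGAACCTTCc

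Proteasome subunits moved little. Of 32, 9 rose and 1 fell, a smaller share of calls than over all genes, with a median log2 fold change of 0.05. The largest rises were Psmd8 (0.58 ± 0.07) and Psma1 (0.38 ± 0.05), and Psmc3 fell by 0.19 ± 0.05. With scaling by library totals 7 rose and 9 fell.

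Inflammatory signals divided into those that rose steeply and a set of chemokines that fell. Of 30 chemokines and cytokines tested (of 32 listed), 16 rose and 9 fell. Cxcl1 (GRCm39 chromosome 5, 91039100 to 91040974), a neutrophil attractant, was at 3.76, 2.87, 4.67 and 3.86 CPM in the control libraries and 233, 139.9, 189.9 and 162 CPM in the cholesterol libraries. Each cholesterol library lay far above each control (log2 fold change 5.58 ± 0.33, adjusted p = 1.34e-13). Cxcl2, of the same family, rose from 0.492 ± 0.123 to 39.4 ± 7.77 CPM. The colony-stimulating factors went from 1 count in all 4 control libraries together to 51 to 128 counts per library for Csf3 and 48 to 85 for Csf2. Il6 (1.94 ± 0.23), Cxcl10 (1.76 ± 0.22), Ccl2 (1.58 ± 0.20), Lif (1.49 ± 0.13) and Ccl7 (1.33 ± 0.20) rose as well. The members that fell included Cxcl12, which retains stem and immune cells in tissue, from 360.4 ± 10.4 to 163 ± 10.4 CPM, and Cxcl14 (-1.80 ± 0.10), Cxcl16 (-1.50 ± 0.09) and Cx3cl1 (-1.18 ± 0.06).

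Most genes of the NF-kB pathway rose. Of 22 genes, 18 rose and 2 fell (median 0.89). Ptgs2 (GRCm39 chromosome 1, 149975782 to 149983978), the inducible cyclooxygenase, was at 14.6, 14.9, 13.99 and 11.2 CPM in the control libraries and 235, 197, 233 and 215 CPM in the cholesterol libraries. The cholesterol libraries were close to each other and far above the controls (log2 fold change 4.01 ± 0.13, adjusted p = 5.27e-20). Nfkbia, which encodes the inhibitor IκBα, was at 53.8, 52.8, 54.3 and 53.3 CPM in the control libraries and 159, 139, 154 and 151 CPM in the cholesterol libraries, with a log2 fold change of 1.495 ± 0.13 and no overlap. The brake Tnfaip3 (2.57 ± 0.09), the subunit Relb (1.38 ± 0.09) and Tnfaip2 (1.20 ± 0.05) also rose. Vcam1, an adhesion molecule, fell by 1.25 ± 0.10. The kappa B word GGANTTTCC was in 6 of 20 chemokine and cytokine promoters and 4 of 18 promoters of the NF-kB list, against 1.05% of all. It was in 3.37% of promoters of genes called more than 2-fold higher and 0.965% of those called more than 2-fold lower. The stretches of 5 members that rose are printed with the word in capitals, from RefSeq on GRCm38.p6 at chr5:90891165-90891194 (+ strand), chr5:90903793-90903822 (+ strand), chr5:30013061-30013090 (+ strand), chr12:55492806-55492835 (- strand) and chr10:19015415-19015444 (- strand).
Cxcl1: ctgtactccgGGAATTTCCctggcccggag
Cxcl2: ctgagctcagGGAATTTCCctggtccccgg
Il6: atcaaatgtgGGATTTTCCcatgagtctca
Nfkbia: ctggtcgggaGGACTTTCCagccactcagg
Tnfaip3: tcacgtgactGGAATTTCCatcggaaatcc

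Receptors of innate immunity mostly fell. Of 20 receptors and adaptors, 13 fell and 6 rose. Il1r1, the signalling receptor of interleukin 1, was at 123, 114, 114 and 112 CPM in the control libraries and 37.1, 39.2, 40.8 and 42.2 CPM in the cholesterol libraries. All cholesterol libraries were below all controls (log2 fold change -1.54 ± 0.08, adjusted p = 1.28e-16). Il1rn, the antagonist of that receptor, fell by 1.78 ± 0.11 and Tlr3 by 0.88 ± 0.21. Tlr2 (1.92 ± 0.14), a receptor of bacterial lipoproteins, and Irak2 (0.81 ± 0.14) rose, and Tlr4 (0.04 ± 0.06, adjusted p = 0.628) was not called. In the interferon response 13 of 24 genes fell and 2 rose (median -0.40). Stat2 (-0.92 ± 0.17), Irf7 (-0.68 ± 0.07) and Ifitm3 (-0.62 ± 0.07) fell.

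Most oxidative stress genes rose. In the list of antioxidant targets of NFE2L2, 16 of 22 rose and 1 fell (median 0.43). Hmox1, the haem oxygenase, was at 526, 469, 504 and 538 CPM in the control libraries and 3885, 3221, 3322 and 3346 CPM in the cholesterol libraries. It was among the most abundant induced messengers, without overlap (log2 fold change 2.76 ± 0.09, adjusted p = 1.12e-20). Srxn1 (1.78 ± 0.06), Txnrd1 (1.55 ± 0.05) and Gclc (1.11 ± 0.06), enzymes that restore thiols, rose, as did the gene of the factor, Nfe2l2 (0.85 ± 0.06). Mt1, a metallothionein, rose from 221 ± 29.3 to 530.0 ± 66.9 CPM and the zinc exporter Slc30a1 by 1.02 ± 0.10. In autophagy and the lysosome 15 of 27 rose and 2 fell. The cargo receptors Sqstm1, from 764 ± 11.3 to 2687 ± 189 CPM, and Optn (0.93 ± 0.09) rose, and Wipi1 (-0.87 ± 0.04) fell.

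**Figure D3:**
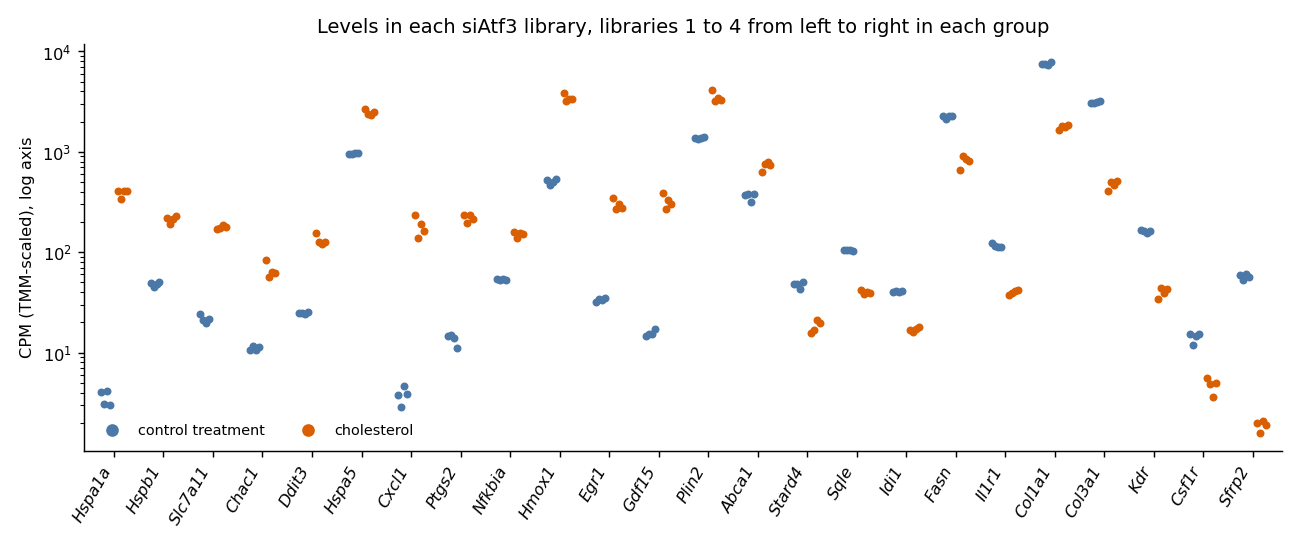
Levels of 24 genes in each of the 8 siAtf3 libraries, in CPM on a log axis, with control libraries in blue and cholesterol libraries in orange. The groups of 4 do not overlap for any of the genes drawn.

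Transcription factors of the immediate early class were raised after 6 h. Of 26 immediate early factors, 22 rose and 3 fell (median 1.18). Egr1, a zinc finger factor of the growth factor response, was at 31.9, 34.4, 33.4 and 34.6 CPM in the control libraries and 346, 269, 302 and 273 CPM in the cholesterol libraries. All cholesterol libraries exceeded all controls (log2 fold change 3.15 ± 0.12, adjusted p = 1.60e-18). Klf2 (3.94 ± 0.22), Fosl1 (2.49 ± 0.14), Fos (2.13 ± 0.19), Jun (1.66 ± 0.20) and Klf6 (1.65 ± 0.10) rose, while Egr3 (-0.77 ± 0.11) and Fosl2 (-0.48 ± 0.07) fell. The MAP kinase phosphatases and Sprouty proteins, which damp the pathway upstream, included 11 of 17 that rose and 4 that fell. Dusp1 (2.78 ± 0.23), Dusp4 (1.30 ± 0.06) and Dusp6 (1.26 ± 0.06) were higher and Spry1 (-1.23 ± 0.08) was lower. Of 22 p53 targets and cell death genes, 10 rose and 7 fell. Gadd45a (2.23 ± 0.26), Plk2 (1.66 ± 0.11) and Mdm2 (1.20 ± 0.09) rose and Sesn1 (-0.98 ± 0.07) fell. The cell cycle inhibitor Cdkn1a (-0.01 ± 0.08, adjusted p = 0.948) and Trp53 (-0.01 ± 0.05, adjusted p = 0.862) were not called.

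Among the relatives of Atf3, 14 of 26 bZIP factors rose and 4 fell (median 0.29). The small Maf proteins, which pair with CNC factors on antioxidant elements, rose in all 3 genes, Maff (1.56 ± 0.11), Mafk (1.49 ± 0.12) and Mafg (0.98 ± 0.07). Atf6 (0.88 ± 0.06), Cebpb (0.76 ± 0.16), Atf2 (0.50 ± 0.05) and Jdp2 (0.41 ± 0.08) rose, the last a close homologue of Atf3. Atf7 (0.02 ± 0.07, adjusted p = 0.85) was not called. The large Maf factor Maf (-1.84 ± 0.09) fell.

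Several secreted stress hormones rose, and most adipocyte markers rose slightly. Gdf15, a hormone of cellular stress that suppresses appetite, was at 14.7, 15.5, 15.5 and 17.1 CPM in the control libraries and 393, 272, 330.1 and 306 CPM in the cholesterol libraries. Its groups did not overlap (log2 fold change 4.37 ± 0.25, adjusted p = 5.98e-14). Fgf21, a fasting and stress hormone, rose from 0.692 ± 0.14 to 7.97 ± 1.61 CPM, and Adm (2.06 ± 0.10) and Angptl4 (1.10 ± 0.17) rose too. Of 20 adipokines and stress hormones, 13 rose and 5 fell, among them Lep, the satiety hormone of fat, which fell by 1.00 ± 0.29. Of 15 adipocyte markers 11 rose and none fell (median 0.30). Fabp4 rose from 5487 ± 331 to 7552 ± 1168 CPM, Pparg (0.33 ± 0.05) and Adipoq (0.23 ± 0.04) rose little, and Cebpa (0.10 ± 0.07, adjusted p = 0.202) was not called. In the list of adipogenic transcription factors 9 of 18 rose and 6 fell, with Zfp423 (-0.83 ± 0.06) the lowest.

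Genes of glucose uptake and use mostly rose. The basal glucose transporter Slc2a1 was at 187, 167, 163 and 181 CPM in the control libraries and 1147, 812, 871 and 755 CPM in the cholesterol libraries, without overlap (log2 fold change 2.36 ± 0.20, adjusted p = 9.53e-11). The insulin-dependent transporter Slc2a4 (0.70 ± 0.05) and the hexokinase Hk2 (1.64 ± 0.12) also rose, within a list of 17 insulin signalling genes in which 12 rose and 3 fell. In glycolysis and hypoxia 18 of 22 rose and 2 fell, Pfkfb4 (-1.04 ± 0.08) among them. Of 17 thermogenic and beta-adrenergic genes 11 rose and 2 fell. Ppargc1b (2.31 ± 0.16) rose and Ucp1 was low, going from 3.30 ± 0.962 to 7.64 ± 0.898 CPM. Nuclear genes of the respiratory chain rose slightly, 22 of 24 with a median of 0.19, for example Cox5b (0.37 ± 0.07) and Sdha (0.22 ± 0.03). With scaling by library totals 14 of them rose. Of 13 mitochondrially encoded messengers 5 rose and none fell, mt-Nd2 (0.41 ± 0.11) and mt-Co1 (0.29 ± 0.06) among them.

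Most matrix genes fell. Of 28 collagens, proteases and other matrix genes, 24 fell and 4 rose (median -0.98). Col3a1, a fibrillar collagen, was at 3089, 3031, 3157 and 3175 CPM in the control libraries and 408, 496, 463 and 515 CPM in the cholesterol libraries. The groups were far apart (log2 fold change -2.73 ± 0.06, adjusted p = 3.79e-28). Col1a1 was at 7496, 7475, 7335 and 7763 CPM in the control libraries and 1644, 1818, 1773 and 1848 CPM in the cholesterol libraries, with a log2 fold change of -2.09 ± 0.06, and Col1a2 fell by 1.99 ± 0.04. Fbn1 (-2.36 ± 0.09) fell, the basement membrane collagen Col4a1 (-0.17 ± 0.04) fell much less, and the collagenase Mmp13 (0.72 ± 0.12) rose.

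Most markers of other cells of adipose tissue also fell. In bulk RNA, fewer cells of a type and less RNA per cell cannot be told apart. Fibroblast and precursor markers summed to 14994 to 15813 CPM in control and 5669 to 6006 CPM in cholesterol libraries, and 12 of 14 fell, Pdgfra (-1.11 ± 0.07) and Sfrp2 (-4.92 ± 0.14) among them. That list shares Col1a1 and Col3a1 with the matrix genes. Macrophage markers fell in 15 of 15 genes, from a sum of 311 to 408 CPM to 147 to 186 CPM, for example Csf1r (-1.59 ± 0.12), Lyz2 (-1.18 ± 0.14) and Cd163 (-3.18 ± 0.31). Endothelial markers fell in 10 of 11, from 767 to 782 CPM to 347 to 403 CPM. Kdr, the main VEGF receptor, fell by 2.02 ± 0.14 and Pecam1 by 0.80 ± 0.06. Smooth muscle and pericyte markers fell in 7 of 10 and rose in 2, from 710 to 816 CPM to 358 to 379 CPM, with Acta2 (-1.57 ± 0.11) lower and Cspg4 (0.95 ± 0.08) higher. Of the 5 measured markers of other cell types Krt19 (1.91 ± 0.12) rose. The part of these cells in the changes of matrix, chemokine and receptor genes was not tested.

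Proliferation genes fell in 19 of 24 cases and rose in 2. Plk1 (-2.13 ± 0.16), Ccnd1 (-1.75 ± 0.09), Top2a (-1.68 ± 0.09) and Mki67 (-1.56 ± 0.11) fell. Core clock genes mostly rose, 12 of 17 with 3 lower. Per2 (1.61 ± 0.14), Cry1 (1.33 ± 0.07), Rora (1.23 ± 0.09) and Nr1d1 (0.81 ± 0.24) rose.

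Genes are called abundant here if their average log2 CPM was at least 2 over all 32 libraries. Ranked by log2 fold change, the top abundant protein-coding genes without overlap included the heat shock genes Hspa1a and Hspa1b and the chemokines Cxcl1 and Cxcl2. The hormone genes Gdf15 and Fgf21, the cyclooxygenase Ptgs2 and the immediate early factor Klf2 were also among them. In the siAtf3 control libraries Cxcl2 held only 11 to 17 counts and Fgf21 13 to 23. Further top genes were Ecel1, a peptidase of the nervous system, at 6.02 ± 0.30 and the carbonic anhydrase Car6 at 4.10 ± 0.21. The neurotrophic factor Gdnf at 3.31 ± 0.30 and Gm13889 at 4.28 ± 0.30 completed the top genes. Among the lowest was Aplnr, the receptor of the adipokine apelin, at 12.004, 10.04, 9.56 and 9.71 CPM in the control libraries and 0.209, 0.185, 0.28 and 0.115 CPM in the cholesterol libraries. Its cholesterol values were near 0 in every library (log2 fold change -5.67 ± 0.21, adjusted p = 2.87e-22). Sfrp2, which binds Wnt proteins, was at 59.9, 52.7, 60.3 and 56.6 CPM in the control libraries and 2.00, 1.59, 2.10 and 1.89 CPM in the cholesterol libraries, also without overlap. Also among the lowest were the progesterone receptor Pgr (-4.91 ± 0.17), the axon guidance protein Draxin (-4.80 ± 0.26), the vasopressin receptor Avpr1a (-4.35 ± 0.15), the growth factor Gdf10 (-4.30 ± 0.14), the death-promoting Bmf (-4.28 ± 0.11), Crocc2 (-4.21 ± 0.17), the endothelial Clec14a (-4.16 ± 0.19), Dio3 (-3.55 ± 0.10), which inactivates thyroid hormone, and the microfibril protein Mfap2 (-3.52 ± 0.15).

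Most of the response was shared in direction with scramble cells. Of the 9860 genes called with siAtf3, 8312 were also called with scramble in the same direction, 78 in the opposite direction, and 1470 were called with siAtf3 alone. With scramble 11072 genes were called, 2682 of them with scramble alone. A call with 1 siRNA alone does not show that a gene differs between the siRNAs. The difference itself (the response with siAtf3 minus that with scramble) was called for 2604 genes (15.3% of those tested), 1054 of them higher (6.21%) and 1550 lower (9.13%). Scaling by library totals gave 1320 higher and 1228 lower, so the balance of the directions depends on scaling. It also depends on the libraries fitted. Of the calls, 40.5% were higher with all libraries, and 49.6% when only the groups compared were fitted. With 1 library left out, 47.3% to 51.1% were higher, apart from 38.8% without scramble cholesterol library 1. The share was 44.8% with DESeq2 and 41.6% with limma-voom. In 1636 of the 2604 both responses had the same sign and that with siAtf3 was the smaller, in 389 it was the larger, and in 579 the signs differed. With 1 library left out at a time the test called 1871 genes (without siAtf3 cholesterol library 2) to 3011 genes (without siAtf3 cholesterol library 1). The count of lower differences moved by over 1.5 times in 4 of these omissions, to 938 without siAtf3 cholesterol library 2, 1031 without siAtf3 cholesterol library 3, 1010 without scramble control library 1 and 1018 without scramble control library 2. In both cholesterol groups library 1 stood furthest from the rest. Its chi-square per degree of freedom against the others was 26.7 to 31.9 with scramble and 12.6 to 15.5 with siAtf3, and among the other libraries it was 4.35 to 9.80 with scramble and 3.14 to 3.94 with siAtf3. The fit assumes 1 spread for all groups.

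Markers of other cells also differed between the siRNAs. Under control treatment fibroblast and precursor markers summed to 14994 to 15813 CPM with siAtf3 and 22753 to 24030 CPM with scramble, and macrophage markers to 311 to 408 CPM with siAtf3 and 228 to 267 CPM with scramble. The median response of the fibroblast markers was -1.34 with siAtf3 and -0.88 with scramble, and the difference was called lower in 5 of 14. For macrophage markers the medians were -1.27 and -0.86, with 4 of 15 differences called lower, and no marker of either list was called higher. The other lists did not share this direction throughout. For endothelial markers the medians were -1.14 and -0.89, with 2 of 11 differences called lower and 1 higher. For smooth muscle and pericyte markers they were -0.73 and -0.87, with 2 of 10 differences called higher and 0 lower. The sum of adipocyte markers under control treatment was 18709 to 20012 CPM with siAtf3 and 24477 to 25328 CPM with scramble. The part of these cells in the differences from scramble was not tested.

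**Figure D4:**
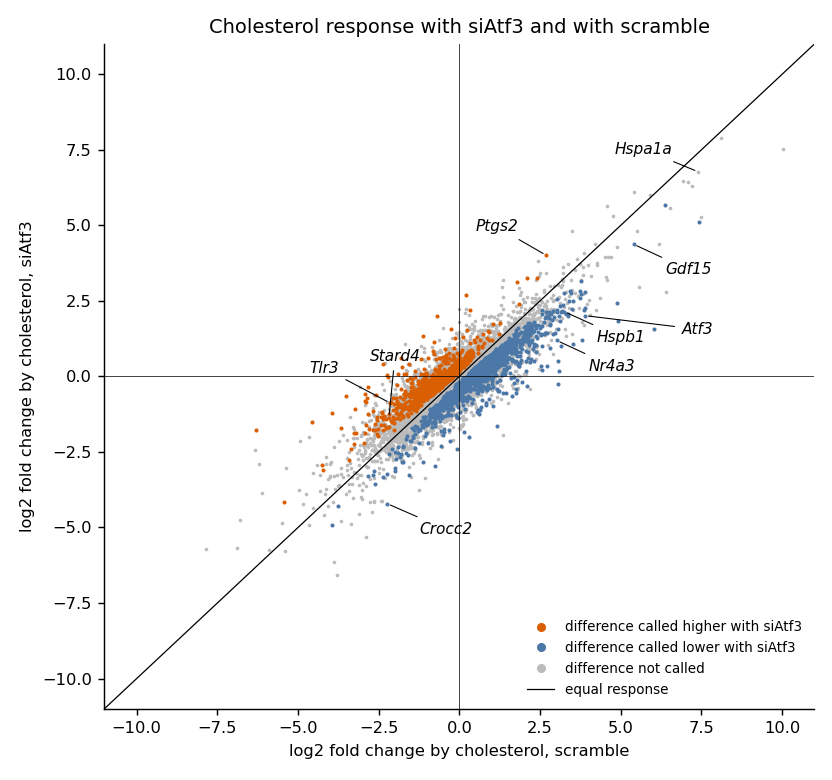
Log2 fold change by cholesterol with scramble (horizontal) and with siAtf3 (vertical) for 16984 genes. Blue and orange points are the 1550 and 1054 genes whose difference was called lower and higher with siAtf3, grey points were not called, and the line marks equal responses.

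Many heat shock, immediate early and NF-kB genes rose less with siAtf3 than with scramble. In this comparison the first number after a gene is its log2 response with siAtf3 and the second that with scramble. In the heat shock list the difference was called lower in 17 of 23 genes and higher in none, and the median response was 0.78 with siAtf3 against 1.19 with scramble. Hspb1 went from 68.00 to 643 CPM with scramble and from 48.3 to 214 CPM with siAtf3 (difference -1.09 ± 0.21, adjusted p = 0.00134). The responses of 3 co-chaperones were Dnajb1 1.86 against 2.88 (difference -1.03 ± 0.23), Bag3 1.00 against 1.88 (difference -0.88 ± 0.16) and Hsph1 2.11 against 2.78 (difference -0.67 ± 0.16). Of the immediate early factors 16 of 26 were lower and none higher, with Egr1 3.15 against 3.77 (difference -0.62 ± 0.16), Nr4a3 1.19 against 3.01 (difference -1.82 ± 0.30) and Btg2 0.62 against 2.12 (difference -1.49 ± 0.27). NF-kB genes were lower in 16 and higher in 2 of 22, but lower in 12 without siAtf3 cholesterol library 1, in 9 without scramble control library 1 and in 8 without the 8 libraries numbered 1. Ptgs2 went the other way. It changed from 22.9 to 148 CPM with scramble and from 13.7 to 220.1 CPM with siAtf3, a difference of 1.32 ± 0.17 (adjusted p = 1.41e-05). In autophagy and the lysosome the difference was lower in 11 of 27, in the clock list in 6 of 17 and among bZIP factors, Atf3 not counted, in 8 of 26, with none higher in these 3 lists. The bZIP count was 4 without scramble cholesterol library 1, the clock count 3 without siAtf3 control library 1 and the autophagy count 6 without siAtf3 cholesterol library 2. Over the same 16 omissions the heat shock count was 12 to 16 and the immediate early count 11 to 17.

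In the integrated stress response the difference was called in both directions, with 4 lower and 3 higher of 24 (2 lower without scramble cholesterol library 1 and 6 without siAtf3 cholesterol library 1). The median response of that list was 1.24 with siAtf3 against 1.44 with scramble. Slc7a11 3.04 against 3.05 (difference -0.02 ± 0.15) and Chac1 2.59 against 2.47 (difference 0.12 ± 0.29) were not called, with adjusted p of 0.964 and 0.842. This does not show equal responses. Where sterol synthesis enzymes differed, the difference was higher with siAtf3, in 5 of 21 enzymes and lower in none. The differences for sterol transport and synthesis included Stard4 -1.38 against -2.18 (difference 0.81 ± 0.10) and Hmgcs1 -0.45 against -1.12 (difference 0.67 ± 0.08), and the response of Srebf1 was 0.59 against -0.17 (difference 0.76 ± 0.18). No difference was called for Abca1 1.02 against 1.04 (difference -0.01 ± 0.17), with an adjusted p of 0.975. Other members with a called difference were Gdf15 4.37 against 5.39 (difference -1.02 ± 0.33), Dusp1 2.78 against 3.89 (difference -1.12 ± 0.31), Plin2 1.36 against 2.02 (difference -0.66 ± 0.17), Hmox1 2.76 against 3.25 (difference -0.49 ± 0.13) and Col3a1 -2.73 against -1.97 (difference -0.76 ± 0.08). The call of Gdf15 was lost when any 1 of 13 of the 16 libraries was left out (adjusted p 0.0514 to 0.102), and kept without siAtf3 cholesterol library 1 or scramble cholesterol library 2 or 4.

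**Figure D5:**
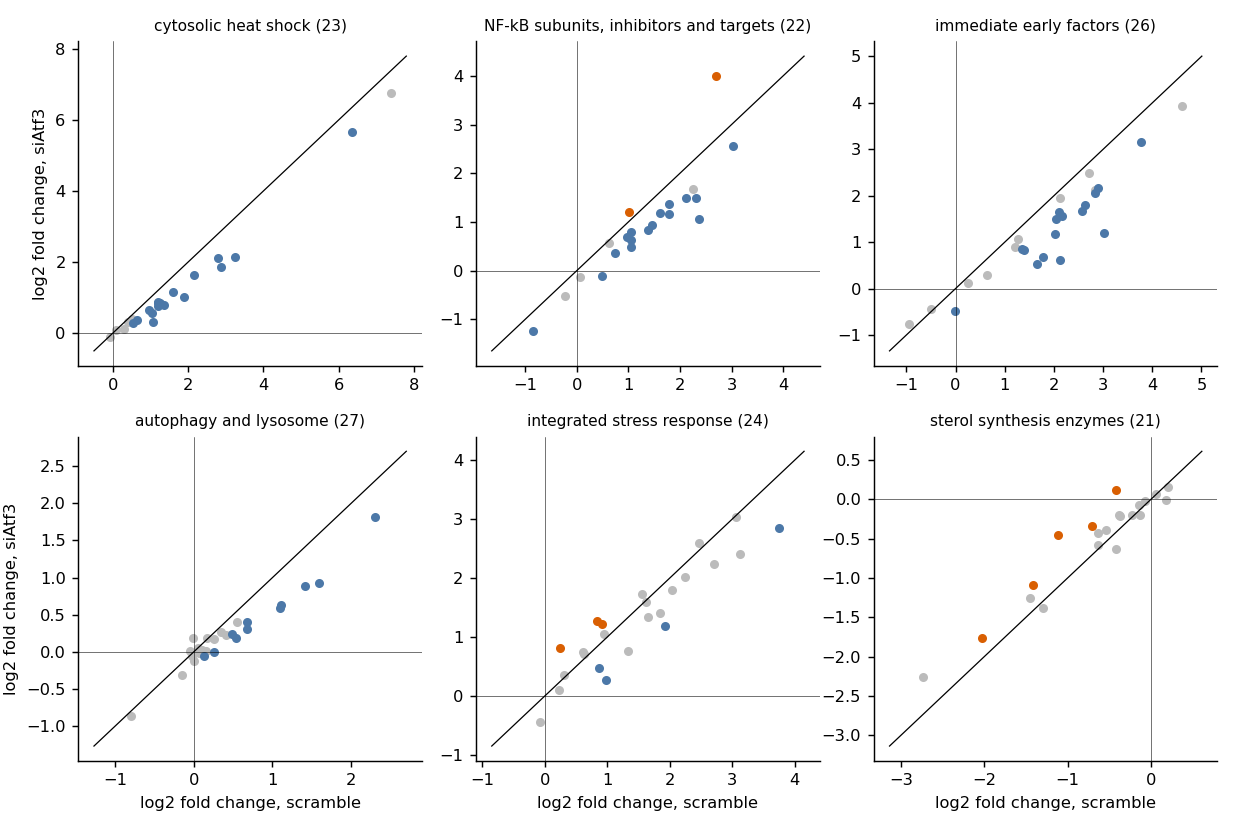
Log2 fold change by cholesterol with scramble (horizontal) and with siAtf3 (vertical) for the genes tested in 6 lists. Blue points are genes whose difference was called lower with siAtf3, orange points higher, grey points not called, and the line marks equal responses. In the heat shock panel 17 of 23 genes were called below the line.

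Among abundant protein-coding genes, the largest differences below scramble were Crocc2 -4.21 against -2.24 (difference -1.97 ± 0.26), Atf3 itself (2.01 against 3.89, difference -1.88 ± 0.41), the small GTPase Arl4c 0.94 against 2.80 (difference -1.86 ± 0.35), 1700020L24Rik (-1.73 ± 0.27), the vitamin D receptor Vdr -2.82 against -1.13 (difference -1.69 ± 0.21), the muscle stress protein Ankrd1 2.28 against 3.90 (difference -1.62 ± 0.40), the clock repressor Nr1d1 0.81 against 2.38 (difference -1.57 ± 0.34) and Depp1 0.52 against 2.06 (difference -1.54 ± 0.52). The call of Depp1 was lost when any 1 of 13 of the 16 libraries was left out (adjusted p 0.0619 to 0.106), and kept without siAtf3 cholesterol library 1 or scramble cholesterol library 2 or 4. Crocc2 and Vdr fell further with siAtf3, and Atf3, Arl4c, Ankrd1 and Nr1d1 rose less. The largest differences above scramble were those of the interferon-inducible GTPase Gm4841 (2.18 ± 0.58), Rasd1 0.40 against -1.56 (difference 1.96 ± 0.20), Ldb3 0.61 against -0.98 (difference 1.59 ± 0.14), Pi15 -1.16 against -2.67 (difference 1.51 ± 0.25), Klhl23 -0.41 against -1.82 (difference 1.40 ± 0.24), Mgat3 -1.87 against -3.19 (difference 1.31 ± 0.19), and the innate immune genes Irgm2 -0.84 against -2.12 (difference 1.29 ± 0.36), Tlr3 -0.88 against -2.15 (difference 1.27 ± 0.31) and Cmpk2 -0.22 against -1.48 (difference 1.27 ± 0.35). Gm4841 has near-identical copies, and its value is uncertain. In siAtf3 cholesterol library 1 the counts of Irgm2 (1281), Cmpk2 (539), Gm4841 (126) and Tlr3 (173) were the lowest of that group. Without that library the responses with siAtf3 were -0.66 for Irgm2, -0.009 for Cmpk2, 0.18 for Gm4841 and -0.75 for Tlr3. Their differences from scramble were still called without it.

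Against cells with both siRNAs the response did not differ in any gene at the threshold. The difference was called for 0 of 16984 genes (0.0%) by edgeR's quasi-likelihood test and also for 0 by the DESeq2 Wald test and by limma-voom. In edgeR's test 666 genes had an unadjusted p under 0.05, below the share of 0.05 that would do so if no gene differed. These groups share no library. Double silencing left Nfe2l1 at 114 CPM under control treatment and 157 CPM under cholesterol. The differences of the genes above were 0.33 ± 0.32 for Hspa1a, -0.03 ± 0.47 for Cxcl1, -0.12 ± 0.15 for Slc7a11, 0.25 ± 0.10 for Stard4, 0.10 ± 0.17 for Ptgs2, -0.01 ± 0.07 for Psma1 and -0.12 ± 0.08 for Col3a1. A difference that was not called does not show that the responses were the same.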

How the data were processed

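Polyadenylated RNA of 32 mouse adipocyte libraries (8 groups of 4) was measured, and each group came from the labels. The authors deposited whole-number counts per gene with gene names, biotypes and coordinates. Per the submitters' processing notes, fastp, HISAT2 2.0.5 and featureCounts 1.5.0-p3 were used with GRCm39. Strand settings and the handling of reads shared by copies are not given in the sources used here, so overlapping and near-identical genes are uncertain. Totals were 23457384 to 33828418 counts per library.

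The counts were analysed in R 4.3.3 with edgeR 4.0.16. Genes passed filterByExpr by group (minimum count 10, minimum total 15), which kept 16984 of 56748. Libraries were scaled by TMM, and robust quasi-likelihood models with 8 group means over all 32 libraries (24 residual degrees of freedom) tested the response with siAtf3 and its differences from the responses with scramble and with both siRNAs. Calls used Benjamini-Hochberg adjustment over all tested genes at 0.05. Adjusted p-values in the text are from this test. The SE of a log2 fold change is its size divided by the square root of F. The test of the response, not those of the differences, was checked on simulated counts with far fewer changed genes than were called here. That check does not cover a library that stands apart. Pairs of libraries within the 2 siAtf3 groups differed beyond sampling noise (3.14 to 15.5 as chi-square per degree of freedom), and each was counted as 1 replicate.

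The genes named for size were the 12 highest and 12 lowest log2 fold changes in the response, and the 10 highest and 10 lowest differences from scramble, among called protein-coding genes with average log2 CPM of at least 2 (in the response also with no overlap between the groups). Other genes are list members given as examples. Some list members are not reported by name here. The libraries, the lists and the examples were chosen with earlier results of these data known. Promoters were RefSeq windows on GRCm38.p6 (250 bases before to 50 after the start, the first listed window per gene, the 250 bases searched on both strands), matched by symbol for 10989 of 13948 tested protein-coding genes (78.8%). The build differs from that of the counts, and 8 words besides the short composite word were searched. Shares of the words not given above follow for genes called more than 2-fold higher, more than 2-fold lower and all promoters. They were 2.77%, 1.82% and 2.66% for the cyclic AMP response element TGACGTCA and 9.11%, 6.65% and 4.58% for the AP-1 site TGANTCA. For the antioxidant element TGACNNNGC they were 14.9%, 10.3% and 12.0%, and for the metal element TGCGCNC 19.2%, 14.0% and 21.5%. The full composite word TGATGCAAT had shares of 0.396%, 0.107% and 0.137%.

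Alternatives were DESeq2 size factors, library totals, no filter, the DESeq2 1.42.0 Wald test, limma 3.58.1 with voom, only the groups compared, a replicate block, leaving out each library, and, chosen after seeing the data, leaving out the 8 libraries numbered 1.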

Additional observations from a re-analysis of the deposited data

Results flagged for a closer look

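Among 410 groups of 4 siAtf3 libraries (205 genes named in the text, control and cholesterol groups apart), 30 held a library whose gap to the nearest other, divided by the range of the group, was above Dixon's 95% critical value. Chance gives about 1 group in 20, and 15 of the 30 lay in cholesterol library 1, the library that also stood apart on the second principal component. The part of that library's makeup in these values was not tested. In cholesterol library 1, the level that stood apart from the other 3 libraries was 52.7 CPM for Atf3, 562 CPM for Srebf1, 1156 CPM for Acsl1, 506 CPM for Atf4, 125 CPM for Ddit4, 451 CPM for Aars, 7.22 CPM for Tlr3, 129 CPM for Gadd45a, 417 CPM for Cdkn1a, 10.4 CPM for Fgf21, 9282 CPM for Fabp4, 945 CPM for Sdha, 265 CPM for Cox5b, 23.9 CPM for Ecel1 and 0.919 CPM for Clec14a. In cholesterol library 2, the level that stood apart from the other 3 libraries was 336 CPM for Hspa1a. In cholesterol library 4, the level that stood apart from the other 3 libraries was 137 CPM for Cxcl10 and 10.3 CPM for Per2. In control library 1, the level that stood apart from the other 3 libraries was 69.1 CPM for Wars. In control library 2, the level that stood apart from the other 3 libraries was 2129 CPM for Fasn, 30.7 CPM for Top2a and 0.735 CPM for Car6. In control library 3, the level that stood apart from the other 3 libraries was 56.4 CPM for Npc1, 120.2 CPM for Vldlr, 12.7 CPM for Ch25h, 48.4 CPM for Cxcl16 and 0.0351 CPM for Csf3. In control library 4, the level that stood apart from the other 3 libraries was 256 CPM for Cidec, 0.0375 CPM for Csf2 and 89.9 CPM for Dusp4.

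The response to cholesterol with siAtf3 differed from that with scramble in 2604 genes by edgeR's quasi-likelihood test of the difference. Of the 36 differences given in the text, 33 were called. The log2 response with siAtf3 minus that with scramble was -1.97 for Crocc2, -1.88 for Atf3, -1.86 for Arl4c, -1.82 for Nr4a3, -1.73 for 1700020L24Rik, -1.69 for Vdr, -1.62 for Ankrd1, -1.57 for Nr1d1, -1.54 for Depp1, -1.49 for Btg2, -1.12 for Dusp1, -1.09 for Hspb1, -1.03 for Dnajb1, -1.02 for Gdf15, -0.88 for Bag3, -0.76 for Col3a1, -0.67 for Hsph1, -0.66 for Plin2, -0.62 for Egr1 and -0.49 for Hmox1. It was above that with scramble by 2.18 for Gm4841, 1.96 for Rasd1, 1.59 for Ldb3, 1.51 for Pi15, 1.40 for Klhl23, 1.32 for Ptgs2, 1.31 for Mgat3, 1.29 for Irgm2, 1.27 for Tlr3, 1.27 for Cmpk2, 0.81 for Stard4, 0.76 for Srebf1 and 0.67 for Hmgcs1. The cause of these differences was not tested.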

How the results depend on the processing

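None of the called genes recomputed changed direction under any alternative. Of 3280 recomputed responses of 205 genes, 10 lost and 1 gained the call. Of 864 recomputed differences from scramble of 36 genes, 31 lost the call, all of them for Gdf15 or Depp1. The list counts were less stable. Of 3040 recomputed list counts, 362 moved by more than the factor used above for the count of lower differences from scramble. These were 26 of 152 without the filter, 23 of 152 with only the groups compared and 19 of 152 with library totals. With limma-voom 3 of 152 moved, and without scramble cholesterol library 1 it was 23 of 76. The 9860 genes called in the response became 9856 with DESeq2 size factors, 9423 without the filter, 9889 with DESeq2, 9895 with limma-voom, 9914 with only the groups compared, and 9349 to 9549 with 1 library left out. The 2604 differences from scramble became 1958 without the filter (1010 lower), 2861 with DESeq2 and 2426 with limma-voom, and 1871 (without siAtf3 cholesterol library 2) to 3011 (without siAtf3 cholesterol library 1) with 1 library left out, of which 938 to 1472 were lower and 769 to 1539 higher. The cause of these shifts was not tested, although leaving out a library also lowers the number of samples.

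Against double silencing, the count of 0 became 4 with only the groups compared (2 higher and 2 lower), and 0 to 1 when 1 library was left out (0 to 1 lower). The exception was siAtf3 cholesterol library 1, without which 1 gene was called, lower. Without the 8 libraries numbered 1 it was 1. The replicate block gave 9982 calls in the response, 2920 in the difference from scramble and 1 against double silencing, lower. The shared numbers were not taken as pairs in the main test. Deviations of same-numbered siAtf3 control and cholesterol libraries correlated at -0.0354 to 0.0496. That check does not cover effects that cholesterol groups share. On the first principal component of all 32 libraries, library 1 was the highest cholesterol library in 3 groups. It lay at 43.59 against 37.1 to 42.34 with scramble and at 35.24 against 29.45 to 31.96 with siAtf3. With both siRNAs it lay at 33.71 against 28.56 to 32.39. An effect shared by same-numbered cholesterol libraries can therefore not be left out. Depth limited genes of few counts such as Csf2 and Csf3, and genes below the filter were not tested.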
